A study of Caenorhabditis elegans with 2 samples.

Results

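The 10000 ChIP-seq regions with the highest signal for the transcription factor ETS-5 were divided by where their summits lay, and those far from any protein-coding gene start are described here. A region was called distal intergenic when its summit, the base of highest signal, lay outside every protein-coding gene body and more than 2000 bp from every protein-coding start site. Of the 10000 regions 1316 (13.2%) met this definition. Of these, 326 lay in repeated sequence and 990 in single-copy sequence, and the 2 sets are given separately. Repeated means that at least 50% of the bases within 100 bp of the summit were covered by 25-base words that occur 2 or more times in the genome on either strand. Single-copy members could thus hold some such bases, and 768 of the 990 held none. Signal chose the 1316 regions, so their signals, ranks and passing counts are descriptions and were not tested.

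The series holds 1 group, whole C. elegans larvae of the first stage (L1) of a labelled age of 6 hours and starved after bleaching, as 2 biological replicates, each of 1 technical replicate. The strain, OP809, carries the transgene wgIs809, a fosmid with ets-5 fused to TY1, EGFP and 3xFLAG tags together with unc-119(+), in the unc-119(tm4063) mutant background. The fusion is expressed beside the worm's own ets-5 from its own regulatory sequence on the fosmid. The chromatin came from whole larvae, and the labels do not say which cells held the fusion. The antibody tag of the labels reads ets-5 while their description reads anti-GFP, chromatin was sheared by sonication, the build is ce11, and the control libraries and the reads were not analysed here. No condition is compared with another. Depth is unknown, and the scale of the signal is not stated.

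ETS factors bind DNA through a conserved domain that reads a GGAA core with flanking bases, often CCGGAA. ETS-5 is known for the gas-sensing BAG neurons, whose fate it helps to set, and for roles in a few further sensory neurons. Worm genes are compact, and most regulatory elements lie close to start sites. Distal elements are best known from genes with long upstream regions, such as homeobox and neuropeptide genes, while chromosome arms hold most of the repeats, pseudogenes and fast-evolving gene families. Tandem repeats are arrays of a short unit copied head to tail.

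Sequences of repeated members are shown first because they carried the highest signals. All are the RefSeq WBcel235 (ce11) plus strand around the summit, and capitals mark exact copies of the repeat unit on either strand. The Y7A5A.7 member, at chrX:15811031-15811181, had the highest signal of all 126002 ranked regions and a unit of 26 bases. The ddl-3 member, at chrII:14337777-14337927, led a family with a 27-base unit found on all 6 chromosomes. The hex-5 member, at chrX:14909067-14909217, had a 25-base unit. The member at chrII:12651333-12651483 had a unit of 15 bases.
Y7A5A.7 member: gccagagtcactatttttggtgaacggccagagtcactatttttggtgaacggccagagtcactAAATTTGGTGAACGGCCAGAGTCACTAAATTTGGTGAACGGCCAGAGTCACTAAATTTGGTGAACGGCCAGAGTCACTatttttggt
ddl-3 member: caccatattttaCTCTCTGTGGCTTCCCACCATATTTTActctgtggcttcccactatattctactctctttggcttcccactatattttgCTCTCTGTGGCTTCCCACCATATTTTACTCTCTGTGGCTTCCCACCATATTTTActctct
hex-5 member: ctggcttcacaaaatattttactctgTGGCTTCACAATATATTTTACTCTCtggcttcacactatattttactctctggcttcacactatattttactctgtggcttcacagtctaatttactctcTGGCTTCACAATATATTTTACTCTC
15-base unit member: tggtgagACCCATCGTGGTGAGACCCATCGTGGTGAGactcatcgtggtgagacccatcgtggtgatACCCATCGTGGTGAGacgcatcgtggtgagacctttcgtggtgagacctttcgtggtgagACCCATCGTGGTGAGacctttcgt

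Single-copy members are shown with 100 bp on each side of the summit, on the same build and strand. In the W02H3.3 member (chrX:11094116-11094316), the F22H10.2 member (chrX:16682014-16682214) and the gtr-1 member (chrX:806549-806749), capitals mark the 9-base word TCGCGCAGG or its reverse complement. In the nhr-3 member (chrX:14561501-14561701), the glb-14 member (chrV:15547394-15547594) and the R04E5.7 member (chrX:8800102-8800302), capitals mark the ETS core word CCGGAA or its reverse complement.
W02H3.3 member: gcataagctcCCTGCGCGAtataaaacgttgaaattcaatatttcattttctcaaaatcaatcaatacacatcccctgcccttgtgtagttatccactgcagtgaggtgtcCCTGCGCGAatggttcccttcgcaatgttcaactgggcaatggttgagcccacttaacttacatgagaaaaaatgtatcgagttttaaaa
F22H10.2 member: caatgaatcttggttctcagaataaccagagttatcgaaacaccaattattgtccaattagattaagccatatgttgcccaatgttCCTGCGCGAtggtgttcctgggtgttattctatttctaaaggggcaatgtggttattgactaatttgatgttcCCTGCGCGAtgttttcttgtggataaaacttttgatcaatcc
gtr-1 member: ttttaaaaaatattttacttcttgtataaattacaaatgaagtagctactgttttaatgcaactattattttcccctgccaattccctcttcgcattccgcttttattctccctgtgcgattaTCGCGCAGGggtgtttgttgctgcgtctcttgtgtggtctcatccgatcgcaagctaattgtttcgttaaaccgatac
nhr-3 member: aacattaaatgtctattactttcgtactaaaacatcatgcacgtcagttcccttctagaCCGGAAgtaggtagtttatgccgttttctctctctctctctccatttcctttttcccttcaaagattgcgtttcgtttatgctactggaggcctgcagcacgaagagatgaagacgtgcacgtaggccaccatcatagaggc
glb-14 member: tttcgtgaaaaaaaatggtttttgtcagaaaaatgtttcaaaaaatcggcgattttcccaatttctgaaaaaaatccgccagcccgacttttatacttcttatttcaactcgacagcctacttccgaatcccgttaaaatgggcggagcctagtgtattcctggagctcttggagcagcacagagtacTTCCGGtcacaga
R04E5.7 member: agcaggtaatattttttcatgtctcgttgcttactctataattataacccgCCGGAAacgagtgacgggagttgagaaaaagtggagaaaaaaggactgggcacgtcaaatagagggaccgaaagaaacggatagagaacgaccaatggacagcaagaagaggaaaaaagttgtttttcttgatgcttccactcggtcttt

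Distal intergenic regions made up 13.2% of the 10000, 14.3% (16596 of 116002) of the ranked regions outside them, and distal intergenic bases made up 16.5% of ce11. Among the first 100 ranks, 44 regions were distal intergenic, and 36 of these 44 (81.8%) were repeated. At ranks 101 to 1000 the count was 124 of which 57 were repeated, and at ranks 1001 to 5000 it was 507 of which 101 were repeated. At ranks 5001 to 10000 it was 641, of which 132 (20.6%) were repeated. Distal intergenic sequence was thus a larger share of the first 100 regions (44.0%) than of any later band of ranks, where it lay between 12.7% and 14.8%. Over all members 24.8% were repeated (95% exact binomial interval 22.5% to 27.2%), against 10.2% (9.55% to 10.8%) of the other 8684 regions of the 10000, 20.7% (20.1% to 21.3%) of the 16596 distal intergenic regions outside the 10000, and 23.5% of 329923 positions taken at every 50th distal intergenic base of the genome. These intervals, and those below, cover counting error only.

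**Figure D1:**
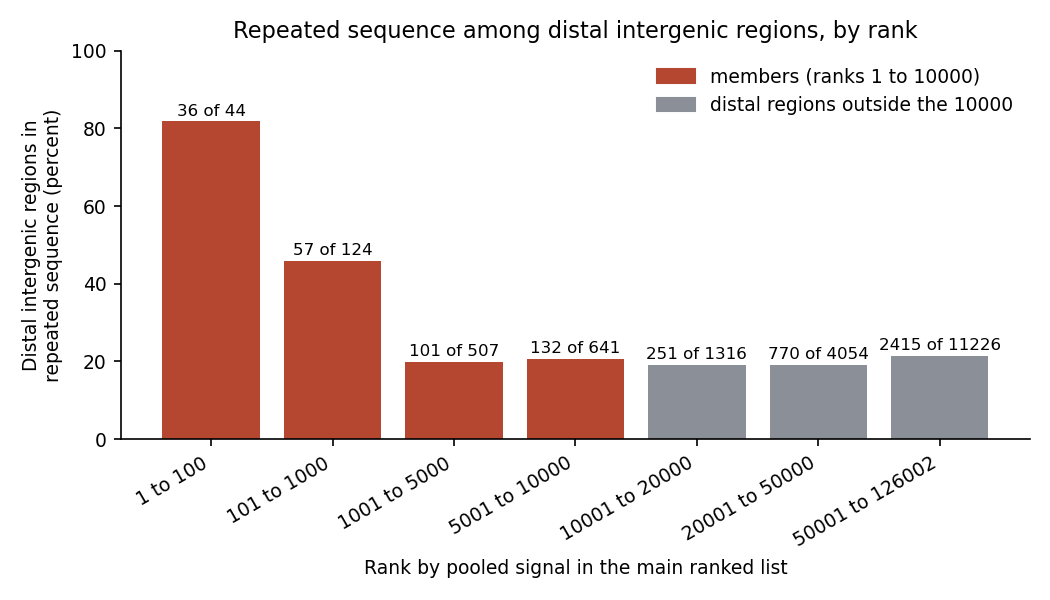
Share of distal intergenic regions that lay in repeated sequence (percent, y axis) by rank band in the main ranked list (x axis), members in red and distal intergenic regions outside the 10000 in grey, with counts over the bars. The share was 81.8% of 44 in the first 100 ranks and between 18.99% and 21.5% in the bands past rank 1000.

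Signals of the 1316 members ran between 46.8 and 1728, with a median of 53.2. The 326 repeated members had a median signal of 55.8 and a highest of 1728, and the 990 single-copy members had a median of 52.7 and a highest of 169.6. At the edge of the 10000 the values were nearly equal. Just inside it were the src-1 member, which is repeated, at rank 9973 (signal 46.8) and the ZK971.1 member at rank 9980 (46.8), and just outside it were distal intergenic regions near F26A10.2 at rank 10001 (46.8) and near cdk-14 at rank 10017 (46.7).

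The pooled list rests on both replicates, so their own lists are no independent check. A region of each replicate's own ranked list overlapped 912 of the 990 single-copy members (92.1%) and 296 of the 326 repeated members (90.8%), against 92.5% of the other single-copy regions of the 10000 and 49.8% of single-copy distal intergenic regions outside it. Single-copy members had a median signal of 28.9 in replicate 1 (968 overlapped) and 25.2 in replicate 2 (934 overlapped). The other single-copy regions of the 10000 had medians close to these, 29.0 in replicate 1 and 25.4 in replicate 2. Of single-copy members 18.9%, and of repeated members 34.4%, ranked within the first 10000 of both replicates. A further 13.4% of single-copy members and 9.82% of repeated members ranked within the first 10000 of neither. These rank shares are not set beside those of the other regions of the 10000, so they are not read as particular to members. The Spearman correlation of the 2 replicate signals was -0.44 over 912 single-copy members, 0.17 over 296 repeated members and -0.34 over 8037 other regions of the 10000. These points were selected on a pooled signal near a common lower limit and share 2 libraries.

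**Figure D2:**
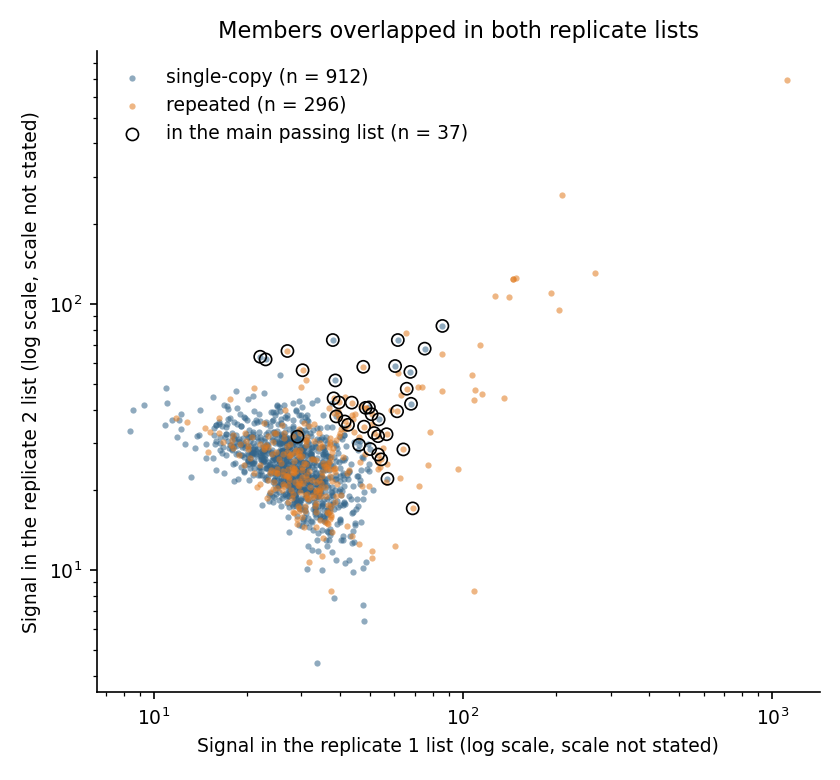
Each point is a member overlapped in both replicate lists, placed by its signal in the list of replicate 1 (x axis, log scale) and of replicate 2 (y axis, log scale), with 912 single-copy members in blue, 296 repeated members in orange, and rings around those in the main passing list. The Y7A5A.7 member stands apart at 1115 and 693, and the highest single-copy member lies at 85.8 and 82.6.

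The authors' lists that pass the threshold on the irreproducible discovery rate (IDR, how well a rank recurs between 2 lists) hold 250 regions (main) and 177 (conservative). Of the members, 38 were in the main passing list, 17 single-copy and 21 repeated, where 0.198% of all ranked regions are. In the conservative passing list were 27 members, 12 single-copy and 15 repeated, where 0.14% of all ranked regions are. An overlap with the passing list of replicate 1 was found for 4 single-copy and 3 repeated members, where 0.0183% of ranked regions have one, and with that of replicate 2 for 5 single-copy and 1 repeated member, where 0.0246% have one. Signal entered these lists and the choice of members alike, so nothing is read from the counts.

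A score of 830 is the lowest in the main passing list. Of the members, 78 (5.93%) scored 830 or more, 17 single-copy and 61 repeated, where 0.238% of all ranked regions did. All 17 single-copy members with such a score were in the main passing list, whereas 40 of the 61 repeated ones were not. Among the other 8684 regions of the 10000, 8 of 205 with such a score were missing from that list. The regions ranked 1, 2 and 3, all repeated members, had the highest possible score, 1000, and were in neither the main nor the conservative passing list. The step that left out regions with a passing score is not named in the labels or files used here.

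Among the repeated members, those in tandem repeats had the higher median signal. A tandem array, called where the bases within 150 bp of the summit matched themselves at 70% or more after a shift of 2 to 100 bases, was found at 89 of the 326 (27.3%), and these had a median signal of 78.4. The other 237 had a median signal of 53.6. The tandem share is not set beside that of other repeated regions, so it is not read as particular to members. Of the 36 repeated members in the first 100 ranks, 32 were tandem. The 25-base words of tandem members occurred a median of 21 times in the genome and those of the other repeated members 2 times. Of the 61 repeated members with a score of 830 or more, 41 were tandem, of which 7 were in the main passing list, and 20 were not tandem, of which 14 were in it.

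The Y7A5A.7 member on X had a signal of 1728 in the pooled list, 1115 in replicate 1 and 693 in replicate 2, and ranked first in all of them. Its sequence, the first printed above, shows 3 adjoining exact copies of the 26-base unit in capitals. A neighbouring member nearest to the same gene had 285 in the pooled list, 204 in replicate 1 and 94.8 in replicate 2. The R57.2 member on X, not tandem, had 457 in the pooled list, 209 in replicate 1 and 257 in replicate 2. It was the highest repeated member without an array. The Y49G5A.1 member on V, with a period of 26 bases, had 397 in the pooled list, 266 in replicate 1 and 131 in replicate 2. The Y69E1A.1 member on IV, with a period of 45 bases, had 306 in the pooled list, 192 in replicate 1 and 110.1 in replicate 2. Signals of the 2 replicate lists have no stated common scale, so ranks are compared instead. In replicate 1 and replicate 2 the Y7A5A.7 member ranked 1 and 1, and its neighbour 4 and 12. The R57.2 member ranked 3 and 2, the Y49G5A.1 member 2 and 5, and the Y69E1A.1 member 5 and 9. The Y73F4A.1 member on IV had 249 in the pooled list and 143 in replicate 1, and no ranked region of replicate 2 overlapped it.

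Some arrays recurred. Members were put in a family where their windows shared at least 25 of the 25-base words, and 27 families of 2 or more held 96 members, while 230 stood alone. The family led by the ddl-3 member had 15 members, all tandem, on all 6 chromosomes, with signals between 50.02 and 271 and a median of 118, and 11 of them scored 830 or more. Only 1 of the 15 was in the main passing list. Its 27-base unit had 214 exact copies in the genome, 64 on X, 55 on V, 48 on III, 27 on II, 18 on IV and 2 on I. The exact unit was found in 8 members, 0 other regions of the 10000 and 17 distal intergenic regions outside it. The ddl-3 member itself had 271 in the pooled list, 148 in replicate 1 and 125 in replicate 2. The nearest start site of ddl-3 lay 6592 bp away and its gene body 2154 bp away. The 25-base unit at hex-5 had 61 exact copies, 25 on III and 24 on X, and its family held 4 members with a median signal of 92.3. That unit was found in 2 members, 1 other region of the 10000 and 4 distal intergenic regions outside it. The 15-base unit was far more common, with 2228 exact copies over all chromosomes, and was found in 17 members, 16 other regions of the 10000 and 76 distal intergenic regions outside it. Of the tandem periods, 27 bases (13 members), 26 (11) and 25 (9) were the most frequent.

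**Figure D3:**
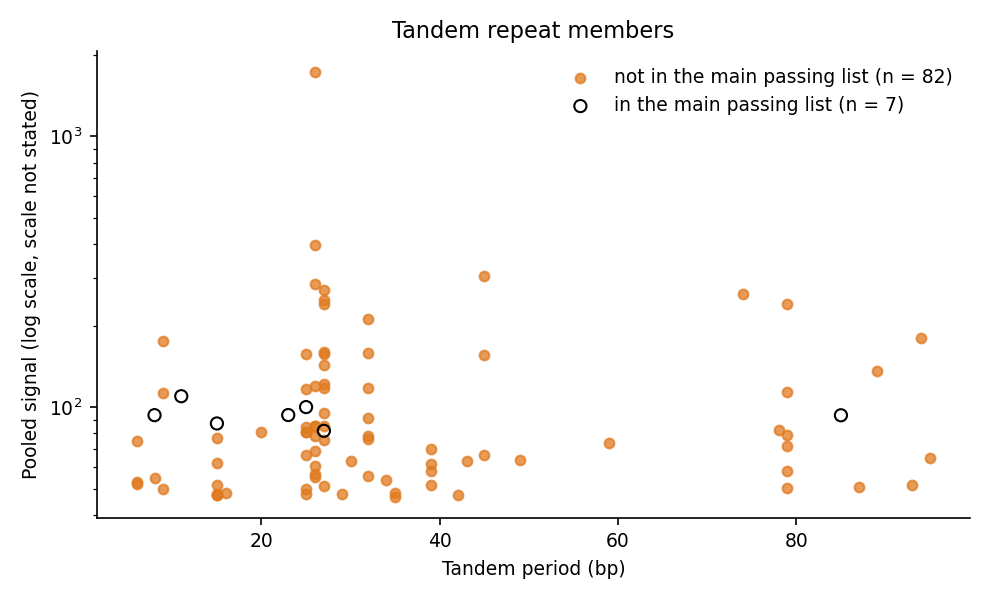
Pooled signal (y axis, log scale) of the 89 tandem members by tandem period in bp (x axis), with rings for the 7 in the main passing list. Periods of 25 to 27 bp hold many of the points, and the highest member, at 1728 with a period of 26 bp, carries no ring.

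Repeated members also lay close to each other. On chromosome I, 7 members, all repeated, lay between Y95D11A.1 and Y95D11A.5, with a highest signal of 262. The 2 highest of them overlap each other and share the same region of each replicate. With 1 further overlapping pair on V, the 1316 members merged into 1314. On chromosome II, 7 members, 6 of them repeated with a period of 79 bases, lay between cct-4, a subunit of a cytosolic chaperonin, and the neuropeptide gene nlp-55, with a highest signal of 241. The 5 members between Y119C1B.3 and zig-9 on I were also repeated, with signals between 51.1 and 118.

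The 8 single-copy members in the first 100 ranks were all in the main passing list, and 5 of them were on X. The W02H3.3 member on X had a signal of 169.6 in the pooled list, 85.8 in replicate 1 and 82.6 in replicate 2. The cmd-1 member on V, 4791 bp from the calmodulin gene, had 146 in the pooled list, 75.2 in replicate 1 and 67.9 in replicate 2, and lay within 500 bp of linc-128, a long intergenic noncoding RNA. In replicate 1 and replicate 2 the W02H3.3 member ranked 34 and 17, and the cmd-1 member 43 and 33. The nhr-88 member on II, near a nuclear hormone receptor gene, had 107 in the pooled list, 37.9 in replicate 1 and 73.1 in replicate 2. The gtr-1 member on X had 104 in the pooled list, 67.9 in replicate 1 and 42.1 in replicate 2. By rank the replicates differed in opposite directions at these 2 members. In replicate 1 and replicate 2 the nhr-88 member ranked 1465 and 27, and the gtr-1 member 54 and 299. The F54F12.1 member on III had 95.03 in the pooled list, 49.6 in replicate 1 and 40.8 in replicate 2. Lower down, the sax-3 member on X, at rank 2030, had 60.7 in the pooled list, 29.2 in replicate 1 and 31.7 in replicate 2, and was in the main passing list. It lay 4557 bp from the start of sax-3, which encodes the Robo-type axon guidance receptor.

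GC content was higher in the upper ranks of the single-copy members. It averaged 40.4% ± 6.55 (SD over 990 windows), against 42.2% ± 6.71 over 7800 other single-copy regions of the 10000 and 36.4% ± 6.52 over 13160 single-copy distal intergenic regions outside it. By band, the mean was 46.6% ± 10.9 over 8 members in the first 100 ranks, 43.3% ± 5.92 over 67 at ranks 101 to 1000, 40.8% over 406 at ranks 1001 to 5000 and 39.5% over 509 at ranks 5001 to 10000. Among distal intergenic single-copy regions past rank 50000 it was 35.7%. The part of GC content in the signals was not tested.

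**Figure D4:**
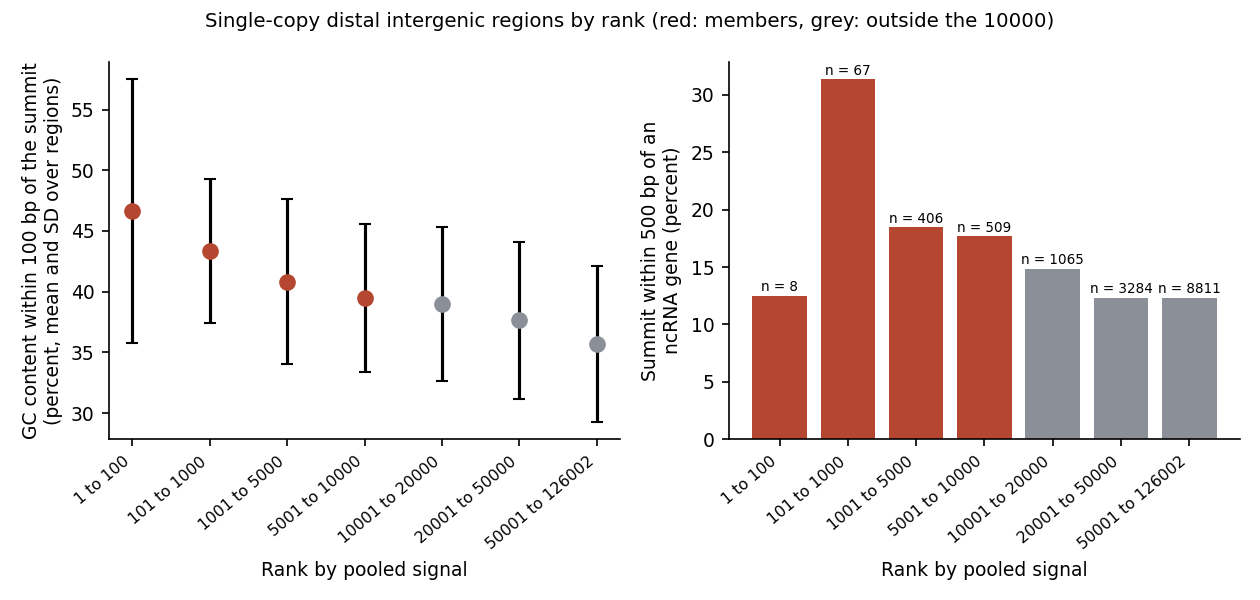
Single-copy distal intergenic regions by rank band (x axes), members in red and regions outside the 10000 in grey. The left panel gives the mean GC content (percent, bars are the SD over regions), which lay between 46.6% in the first 100 ranks and 35.7% past rank 50000, and the right panel gives the percent with an ncRNA gene within 500 bp, highest at 31.3% for ranks 101 to 1000.

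The 9-base word TCGCGCAGG was found in 6 members, counted on both strands up to 100 bp either side of the summit, and 5 of the 6 were on X. As background, these letters match the centre of the X-enriched motif of recruitment elements on X, the sites where the dosage compensation complex of C. elegans is loaded. It was copied 2 times in the W02H3.3 member, 2 times in the F22H10.2 member, 2 times in the xol-1 member and once in the gtr-1 member, and once in the hlh-29 member, which is repeated. The F22H10.2 member had a signal of 119.9 in the pooled list, 67.6 in replicate 1 and 55.5 in replicate 2. The hlh-29 member had 106 in the pooled list, 47.6 in replicate 1 and 58.0 in replicate 2. The xol-1 member, 4856 bp from the switch gene of sex determination and dosage compensation, had 67.2 in the pooled list, 22.7 in replicate 1 and 46.4 in replicate 2. Only 1 member with the word was on an autosome, the prk-2 member on III at rank 8903.

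Of the single-copy members 5 of 990 (0.505%, interval 0.164% to 1.17%) held the word, against 12 of 7800 other single-copy regions of the 10000 (0.154%), 7 of 13160 single-copy distal intergenic regions outside it (0.0532%) and 0.0361% of single-copy distal intergenic positions of the genome. Within the first 100 ranks it was in 4 of 13 members on X and in 0 of 31 on autosomes. The other regions of the first 100 ranks were alike in this, with 3 of 10 on X and 0 of 46 on autosomes, so the word was not particular to distal intergenic regions. Further down it was rare on X too, at 1 of 30 members at ranks 101 to 1000 and 0 of 267 past rank 1000. The genome has 116 copies, 48 of them on X, and 9 copies (8 on X) lay within 100 bp of a member's summit. The word was chosen after these sequences had been read, and 7 related words were tried in all. The longest of these, the 11-base word TCGCGCAGGGA, was in 3 members on X and 0 on autosomes, against 1 distal intergenic region outside the 10000 on X and 0 on autosomes. These regions were picked on signal, so the counts carry no test.

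The ETS core word was about as frequent in single-copy members as in other single-copy regions. CCGGAA on either strand lay within 100 bp of the summit of 96 of 990 (9.70%, interval 7.93% to 11.7%), against 10.1% (9.48% to 10.8%) of other single-copy regions of the 10000, 8.29% (7.82% to 8.77%) of single-copy distal intergenic regions outside it and 6.94% of single-copy distal intergenic positions. The members' interval includes the value outside the 10000, and in the list of replicate 1 alone the shares were 8.33% of single-copy distal intergenic regions among its 10000 highest and 8.42% of those below. In the list of replicate 2 alone they were 9.92% and 8.01%. The 4-base core GGAA, which CCGGAA contains, was in 90.4% of single-copy members, 89.5% of other single-copy regions of the 10000 and 86.6% of those outside. Within 50 bp of the summit CCGGAA was found in 48 members (4.85%), and in flanks 150 to 200 bp away in 41 (4.14%), against 4.77% and 4.03% outside. Of the 8 single-copy members in the first 100 ranks 0 held the word, and 13.4% of the 67 at ranks 101 to 1000 did. The nhr-3 member, printed above, was the highest single-copy member with it, at 90.5 in the pooled list, 25.7 in replicate 1 and 54.2 in replicate 2. The glb-14 member on V, near a globin gene, came next, at 84.7 in the pooled list, 23.0 in replicate 1 and 61.8 in replicate 2. The R04E5.7 member had 80.3 in the pooled list, 45.6 in replicate 1 and 30.8 in replicate 2. Of these 3 the glb-14 member was in the main passing list, and the nhr-3 and R04E5.7 members were not.

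All 2080 words of 6 bases, each counted with its reverse complement, were ranked by the difference between the share of single-copy members and of single-copy distal intergenic regions outside the 10000 that hold them, and CCGGAA came at 399. At the top, AAGAAG was in 23.3% of single-copy members against 18.8% outside, CCTGCC in 10% against 5.48% and GAGAGA in 16.9% against 12.4%. At the other end were TTGAAA, in 37.3% against 48.96%, AAAAAT, in 55.4% against 66.9%, and AAATAT, in 23.5% against 34.99%. Mean GC content differed between these sets in the same direction, and its part in the order of words was not tested.

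Noncoding genes lay near many members. Of the 990 single-copy members 350 (35.4%, interval 32.4% to 38.4%) lay within 500 bp of an annotated noncoding gene or pseudogene, close to the 33.9% (33.1% to 34.8%) of single-copy distal intergenic regions outside the 10000. The types differed. An ncRNA, the class of the Ensembl annotation that holds noncoding transcripts with no more specific type, lay near 187 (18.9%, interval 16.5% to 21.5%), against 12.5% (11.96% to 13.1%) outside and 8.17% of other single-copy regions of the 10000. The summit was inside an ncRNA body in 59 (5.96%, interval 4.57% to 7.62%), against 2.92% (2.64% to 3.22%) outside. Pseudogenes went the other way, near 114 members (11.5%, interval 9.59% to 13.7%) against 15.4% (14.8% to 16.02%) outside.

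The ncRNA share is also given by band of GC content, without intervals, and was the higher in value among members in each. Under 35% GC it was 15.02% of 213 single-copy members against 9.93% outside, and at 35% to 40% it was 15.4% of 272 against 12.3%. At 40% to 45% it was 21.95% of 287 against 15.6%, and from 45% it was 22.9% of 218 against 19.1%. The part of GC content in the ncRNA share was not tested. In the replicates' own lists the share was 17.04% among the 10000 highest against 12.8% below in replicate 1, and 17.4% against 12.1% in replicate 2. It was highest at ranks 101 to 1000, at 31.3% of 67 single-copy members, and was 12.3% past rank 20000. The C30E1.4 member on X lay in C30E1.9, an ncRNA, and had 117 in the pooled list, 60.3 in replicate 1 and 58.4 in replicate 2.

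**Figure D5:**
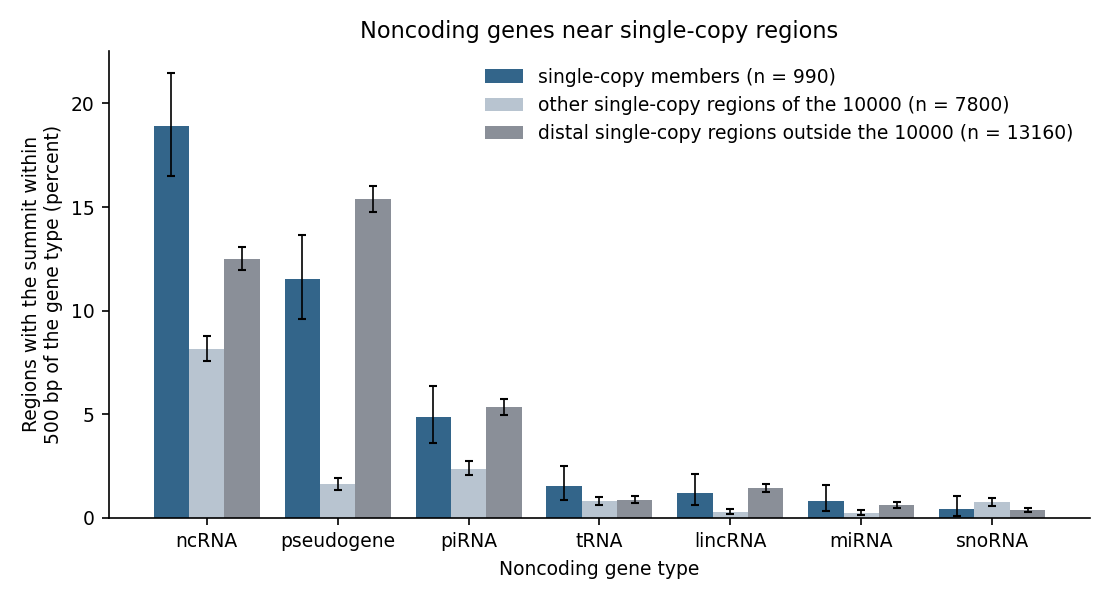
Percent of single-copy regions with the summit within 500 bp of each noncoding gene type (y axis; types on the x axis), for members, for the other single-copy regions of the 10000 and for distal single-copy regions outside it, with exact 95% binomial intervals as error bars. Members stand at 18.9% for ncRNA, above the 12.5% outside, and at 11.5% for pseudogenes, below the 15.4% outside.

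The smaller noncoding classes are given as counts. A tRNA gene lay near 15 single-copy members (1.52%, interval 0.850% to 2.49%), against 0.859% outside. The glb-14 member, which holds CCGGAA, had the highest signal of these. The F46G11.4 member on X, near 2 tRNA genes, had 81.4 in the pooled list, 37.8 in replicate 1 and 42.5 in replicate 2. Piwi-interacting RNA (piRNA) genes lay near 48 members (4.85%), 35 of them on IV, where most of these germline small RNAs are encoded, against 5.33% outside. A lincRNA lay near 12 single-copy members (1.21% against 1.42% outside), a microRNA near 8 (0.808% against 0.600%) and a snoRNA near 4 (0.404% against 0.357%). The T24D8.6 member on X, near the microRNAs mir-73 and mir-74, had 64.6 in the pooled list, 31.0 in replicate 1 and 29.6 in replicate 2. Repeated members lay near a pseudogene in 18.7% (14.6% to 23.4%), against 26.7% (25.2% to 28.2%) of repeated distal intergenic regions outside the 10000, and near an ncRNA in 3.37%, against 3.61%.

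Single-copy members lay toward the chromosome ends somewhat more often than the distal intergenic regions outside the 10000. Of the single-copy members 74.4% (71.6% to 77.1%) lay in the outer parts of a chromosome, its first or last 33.3% by length, against 69.4% (68.6% to 70.2%) of single-copy distal intergenic regions outside the 10000 and 68.7% of single-copy distal intergenic positions. Repeated members had 81.3% there, against 84.3% outside. On X were 25.9% of single-copy members (23.2% to 28.7%) and 16.6% of repeated members (12.7% to 21.1%), against 24.8% and 20.1% outside. Within 50000 bp of ets-5 on X, which the fosmid transgene carries too, lay 7 members, 1 of them repeated. This count has no share of other regions of the same stretch beside it, so it is not read as an excess. The part of the transgene in these members was not tested.

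The genes on either side were divergent, with both starts facing the gap, for 34.04% of single-copy members (31.1% to 37.1%), against 29.5% (28.7% to 30.3%) outside the 10000. They were convergent for 13.1%, against 13.7%, and for 28.2% of repeated members, against 29.2%. The 3′ end of a protein-coding gene lay within 1000 bp of 12.6% of single-copy members (10.6% to 14.9%), against 16.1% (15.5% to 16.8%). The median distance to the nearest start site was 3741 bp for single-copy members and 3600 bp outside, and 28.0% against 24.2% lay more than 5000 and up to 10000 bp away. The member farthest from a start, 38845 bp from Y73B3A.1 near the left end of X, was repeated, and the farthest single-copy member lay 23730 bp from Y105C5B.1418.

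The 990 single-copy members had 836 different nearest genes and lay in 750 intergenic gaps, of which 170 held 2 or more. Counts for lists of genes are small, and each is given as a share of the 990 beside the share of the 13160 single-copy distal intergenic regions outside the 10000. For the flp, Hox and bHLH genes the share of single-copy distal intergenic positions of the genome is added. FMRFamide-like peptide (flp) genes were nearest to 8 members, at 7 of 31 genes, which is 0.808% against 0.448% outside and 0.543% of positions. The flp-26 member had 75.6 in the pooled list, 41.1 in replicate 1 and 34.2 in replicate 2. The flp-12 member had 58.2 in the pooled list, 31.1 in replicate 1 and 23.3 in replicate 2. The remaining flp members, at flp-15, flp-24, flp-6, flp-34 and flp-16, had pooled signals between 46.9 and 54.3. Neuropeptide-like protein (nlp) genes had 4 members, 0.404% against 0.866%, while insulin-like peptide (0.258% outside), receptor guanylyl cyclase (0.160%) and histone genes (0.0304%) had 0.

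Developmental transcription factors were represented at single genes. Hox genes, which pattern the body axis, had 4 members at 3 of 6 genes, 0.404% against 0.205% outside and 0.302% of positions. The higher of the egl-5 members had 60.8 in the pooled list, 36.4 in replicate 1 and 25.1 in replicate 2, the nob-1 member had a pooled signal of 58.0 and the mab-5 member 51.7. Genes of developmental timing had 4 members, 0.404% against 0.137%, of which 3 were at hbl-1, a zinc finger factor, with pooled signals of 56.97, 54.7 and 48.3, and 1 at lin-29, with 48.5. All 3 at hbl-1 lay within 500 bp of an ncRNA. The ceh homeobox genes had 6 members, 0.606% against 0.578%, with pooled signals of 61.5 and 48.8 at ceh-43, the Distal-less counterpart, and 58.4 at ceh-32, a sine oculis-type homeobox gene. Nuclear hormone receptor genes had 17 members at 12 of 269 genes, 1.72% against 2.23%.

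Neuronal and sensory lists had few members. BAG neuron genes had 1 of 990, 0.101% against 0.213% outside. It was the fax-1 member, 7580 bp from the nearest start site of fax-1, a nuclear receptor gene needed for neuron identity. The member lay near an ncRNA and had 69.98 in the pooled list, 29.5 in replicate 1 and 38.4 in replicate 2. Pan-neuronal genes had 3 members, 0.303% against 0.220%, at unc-31 and unc-10, both of vesicle release, and at rgef-1, with pooled signals of 63.1, 59.0 and 53.1. The ETS-domain genes had 1, 0.101% against 0.0532%, the ast-1 member, with 48.9 in the pooled list, 31.9 in replicate 1 and 14.5 in replicate 2. Calcium and calmodulin genes had 3, 0.303% against 0.213%, the cmd-1 member and 2 at tax-6, a calcineurin subunit gene, with pooled signals of 64.9 and 60.5. Chemoreceptor genes, the large families on chromosome arms, had 24 members at 23 of 1292 genes, 2.42% against 4.40%, and F-box genes had 15, 1.52% against 1.03%. Cuticle collagen genes had 5 members (0.505% against 0.532%), C-type lectin genes 5 (0.505% against 0.517%) and cytosolic ribosomal protein genes 3 (0.303% against 0.236%). The bHLH genes had 2, which is 0.202% against 0.175% outside but below the 0.358% of positions. Muscle genes had 1, at hlh-1 (0.101% against 0.0532%), and intestine genes 1, at ges-1 (0.101% against 0.0836%).

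Some single-copy members lay side by side. The densest stretch of 20000 bp held 8 members on X between C30E1.4 and F52G3.8, 2 of them repeated, with a highest signal of 117. The densest with no repeated member held the 6 on X between apl-1, the amyloid precursor-like gene, and tbc-7. Their pooled signals were 64.3, 61.0, 53.1, 50.5, 49.8 and 49.3, of which 3 lie above the single-copy median of 52.7 and 3 below it. The bcl-11, dmd-6 and npr-4 genes each had 4 single-copy members nearest to them, as had C30E1.4 and apl-1. The bcl-11 members had pooled signals of 71.4, 54.6, 47.8 and 46.9, and the npr-4 members, near a neuropeptide receptor gene, 65.2, 56.7, 56.1 and 54.7. Not every member of these groups had an overlapping region in both replicates. The second npr-4 member had 39.6 in replicate 1 and no overlapping region in replicate 2.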

How the data were processed

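ChIP-seq was made from whole L1 larvae of strain OP809 in 2 biological replicates, per the labels. No aligner or peak caller is named in the labels or files used here, and reads and controls were not analysed here. The authors deposited 4 ranked region lists (126002 regions in the main one, 123697 in the second, 108309 for replicate 1 and 92443 for replicate 2) and 4 lists that pass an IDR threshold. The deposited signal of each region is the value of the authors' caller, on a scale not stated, and serves only to rank and describe within a list. The deposited score is 125 times the −log2 of the global IDR, cut to a whole number and capped at 1000, which was checked on the lists. The authors also deposited the −log10 of the local and global IDR, used here only for that check. Signals per replicate come from the region of highest signal in each replicate's own list that overlaps a member by 1 bp or more, since the 2 signal columns of the main list could not be matched to a sample.

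The annotation was Ensembl release 115 (19973 protein-coding genes) and the sequence RefSeq WBcel235, whose coordinates are those of ce11 and are given 1-based, with Python 3.11.15, NumPy 2.4.6, pandas 2.3.3, SciPy 1.17.1 and matplotlib 3.10.9. Repeat, tandem and noncoding calls were tested on simulated data, and word calls were not. Shares have exact 95% (Clopper-Pearson) intervals. No p-value was computed, since there is 1 group and regions are not replicates. Background positions were every 50th distal intergenic base. Gene lists, 21 in all, go by the nearest protein-coding start site, and 8 of their listed names were not found among the names of protein-coding genes. Of the ETS-domain genes 9 of 12 names were found, and of the genes of developmental timing 8 of 13. Members, lists and the rule for named regions were chosen with earlier results of these data known. That rule takes the 20 highest single-copy and 8 highest repeated members, those in a passing list, the highest near each noncoding type and of each gene list, the farthest from a start, those at the edge of the 10000, the highest by replicate, and the densest stretches. Repeat families, the members with the 9-base word or the highest CCGGAA, and genes with 4 members were named outside it, after their values were seen. Alternatives to these rules were tried, and each replicate's list was used alone.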

Additional observations from a re-analysis of the deposited data

How the results depend on the processing

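Each of 7 results was recomputed under the alternatives, 91 values in all, and 63 stayed within the reported share's binomial interval, 1.5 times of the count of members or the 95% interval of mean GC content, while 28 moved. Members numbered 675 among the 5000 highest regions, 2632 among the 20000 highest and 414 with a distance over 5000 bp. The repeated share (24.8%) was 28.7% at 5000 regions, 21.9% at 20000 and 32.8% where 25% of the window sufficed, and between 21.3% and 26.7% in the list of a single replicate. The share near a noncoding gene (35.4%) was 22.4% with summits in noncoding bodies left out, 27.3% within 200 bp, 43.8% within 1000 bp, 32.3% without piRNA genes, 24.9% without pseudogenes, and 34.4% to 35.6% by replicate. The CCGGAA share (9.70%) was 4.85% within 50 bp, 90.4% for GGAA, and 8.33% to 9.92% by replicate. The outer share (74.4%) was 71.5% at a distance over 1000 bp, 56.2% by the outer 25% at each end, and 72.6% to 73.8% by replicate. The share overlapped in both replicates (92.1%) was 94.2% at 5000 regions, 87.4% at 20000 and 78.4% with replicate summits within 100 bp. By replicate it was 76.5% to 80.7%. There the regions of a replicate's list always overlap themselves, so these shares are overlaps with the other replicate only. Mean GC content (40.4%, interval 39.94% to 40.76%) was 41.3% at 5000 regions, 39.6% at 20000, 40.9% over 5000 bp and 39.9% with noncoding bodies left out. It was 41.4% by soft-masking, 41.1% within 50 bp, and 38.99% to 40.5% by replicate. Of these values only the 40.5% of replicate 1 alone lay inside the interval. The cause of these moves was not tested beyond what each setting changes.

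No paired analysis was possible because the series holds 1 group. Both replicates enter the pooled ranking, so their agreement is not independent of it. Depth, which limits low signals, is unknown. Copies of a repeat cannot be told apart by these lists, and how reads with several matches were placed was not stated.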
